A study of Mus musculus with 19 samples.

Results

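Integrins are the receptors that fibroblasts use to hold on to the extracellular matrix, and 9 integrin subunit genes together with Vcam1, a cell surface ligand of an integrin, were followed in NIH3T3 cells over 12 h of growth factor stimulation. The 10 genes were taken by symbol from a whole-genome array that holds 45101 probe sets. They were Itga2, Itga3, Itga4, Itga5, Itga6 and Itgav (alpha subunits), Itgb1, Itgb3 and Itgb5 (beta subunits) and Vcam1. They had 35 probe sets, of which 30 passed the filter on low signal, and all 10 genes kept at least 1. NIH3T3 is an established line of mouse embryonic fibroblasts. Every sample was first starved for 48 h in 0.1% serum, which makes the cells quiescent. U0126 inhibits MEK, the kinase that activates ERK, and was used at 20 µM. In 3 groups it was present from -0.5 h and the cells were collected after 4, 7 or 12 h of basic fibroblast growth factor (FGF, 50 ng/ml), with 2 arrays each. A group of 1 array had U0126 from -0.5 h and 1 h of FGF. A group of 1 array received U0126 at 1 h of FGF and was collected at 7 h, and a group of 1 array received it at 7 h and was collected at 12 h. FGF alone was given for 1 h (1 array) or for 4, 7 or 12 h (2 arrays each). The reference was the quiescent state before FGF, with 3 arrays. The labels number the samples as experiment 1 or 2, and the groups of 1 array all came from experiment 1. Nothing in the labels says that samples of a group were separate cultures, so p-values measure the spread between these samples, which may be technical.

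Each integrin is a pair of 1 alpha and 1 beta subunit, and the pair decides which ligand is bound. Alpha 5 beta 1 is the classical fibronectin receptor, alpha 2 beta 1 binds collagen, alpha 3 beta 1 and alpha 6 beta 1 bind laminins, and alpha v pairs with beta 1, beta 3 or beta 5 to bind vitronectin and other proteins with an RGD motif. Alpha 4 beta 1 binds fibronectin and also VCAM-1, the product of Vcam1, an immunoglobulin-family adhesion molecule best known from activated endothelium and also made by fibroblasts. Growth factors and integrins act on shared pathways, among them the ERK cascade, and cells that enter the cycle or move change their set of adhesion receptors.

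Signal is the linear MAS5 value as deposited, scaled by the authors so that the trimmed mean of every array is about 500. Levels of different probe sets cannot be set against each other, because probes differ in affinity. Array medians lay between 60.2 and 88.3, and a signal under 45.2, the 40th percentile of all values, is called low here. All 9 fibroblast markers measured had median signals from 1921.4 to 32480.1, and of the markers of other cells Ptprc, Itgam and Tie1 were low on all 19 arrays, while Csf1r, Itgb2, Epcam, Krt14 and Itga2b were above 45.2 on all 19. Of the marker lists of other cells, 4 of 7 macrophage and leukocyte genes, 1 of 6 endothelial, 4 of 6 epithelial and 3 of 4 platelet genes had a median above 45.2, led by Krt14 at 1814.3. The summed signal of the leukocyte list was 353.3 to 564.5 on arrays with U0126, against 516.9 to 672.7 with FGF alone and 442.4 to 500.8 in quiescent cells. That of the epithelial list was 1820.9 to 3601.2 with U0126, against 1023.9 to 2387.9 with FGF alone and 2405.9 to 3690.6 in quiescent cells. The endothelial list summed to 97.4 to 233.4 with U0126, against 95.4 to 262.7 with FGF alone and 138.3 to 175.6 in quiescent cells, and the platelet list to 349.5 to 721.3, against 395.5 to 618.3 and 517.6 to 712.9. The part of these genes in the results below was not tested.

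The start-site regions of 3 members are shown because their transcripts behaved differently, Itgb5 falling late after FGF, Itga5 rising at 4 h and Itgb1 passing no test. The sequences run from 250 bases before to 50 bases after the RefSeq start on GRCm38.p6 and are written on the strand of the gene. Itgb5 is at chr16:33829415-33829714 on the plus strand, Itga5 at chr15:103366742-103367041 on the minus strand and Itgb1 at chr8:128685404-128685703 on the plus strand. Capitals mark GGGCGG, the GC box, and CCGGAA, the core bound by ETS factors, on either strand.
Itgb5: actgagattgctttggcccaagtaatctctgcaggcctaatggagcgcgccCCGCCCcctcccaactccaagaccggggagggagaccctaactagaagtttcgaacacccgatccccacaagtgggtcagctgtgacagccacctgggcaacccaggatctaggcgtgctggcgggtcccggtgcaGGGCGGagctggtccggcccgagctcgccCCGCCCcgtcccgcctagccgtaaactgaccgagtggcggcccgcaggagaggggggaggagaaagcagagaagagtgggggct
Itga5: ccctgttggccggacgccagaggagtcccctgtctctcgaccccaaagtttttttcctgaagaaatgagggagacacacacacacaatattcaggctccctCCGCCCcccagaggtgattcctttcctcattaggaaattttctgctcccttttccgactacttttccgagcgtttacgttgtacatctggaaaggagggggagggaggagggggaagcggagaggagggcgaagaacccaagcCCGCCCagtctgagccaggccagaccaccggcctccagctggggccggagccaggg
Itgb1: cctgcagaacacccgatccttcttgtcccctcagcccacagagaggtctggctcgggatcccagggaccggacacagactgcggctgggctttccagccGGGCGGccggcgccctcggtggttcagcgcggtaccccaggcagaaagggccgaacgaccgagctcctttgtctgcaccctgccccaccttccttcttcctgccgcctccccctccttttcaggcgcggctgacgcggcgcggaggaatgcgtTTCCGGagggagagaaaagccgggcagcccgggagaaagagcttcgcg
The GC box stood 3 times in the window of Itgb5, 2 times in that of Itga5 and 1 time in that of Itgb1, and the ETS core was found 1 time, in Itgb1. The promoter table covered 7 of the 10 members (Itga2, Itga3, Itga4, Itga5, Itgav, Itgb1 and Itgb5), and all 7 held a GC box, which 35.7% of all 32851 windows hold. The ETS core was in Itgb1 and Itga3 and in 14.9% of all windows. TGACTCA, the AP-1 site, was in 0 of the 7 and in 5.2% of all windows, and the CArG box of SRF was in 0 of the 7 and in 1.63% of all. GGGCGG and CCGGAA do not overlap in these windows, and a match says only that the letters are there.

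Without the experiment as a replicate block, 3 of these genes passed against quiescent cells at 1 or more times of FGF alone. Itga5, the fibronectin receptor subunit, rose at 4 h, Itga6, a laminin receptor subunit, rose at 12 h, and Itgb5, a partner of alpha v, fell at 7 and 12 h. At 1 h 0 of the 10 members passed in either direction (limma, adjusted p at 0.05), where 0.373% of the 14996 genes tested were called higher and 0.107% lower. Of the members, Itgb3 alone had an unadjusted p under 0.05 at 1 h. At 4 h 1 member was higher and 0 were lower, against 3.91% and 4.97% of all genes. At 7 h 0 were higher and 1 was lower, against 5.47% and 7.2% of all genes. At 12 h 1 was higher and 1 was lower, against 8.54% and 11.8%. For 10 members the counts at 7 and 12 h are near the shares of all genes. With the block 2, 2 and 1 members were higher and 0, 1 and 2 lower at 4, 7 and 12 h. The added calls were of Itgb3 and Vcam1, and the block called 17.7%, 21.7% and 30.1% of all genes in either direction. The members' median log2 difference was -0.10, 0.09, 0.43 and 0.15 at 1, 4, 7 and 12 h, beside 0.00, -0.09, -0.05 and -0.02 for all genes tested. In bulk RNA, fewer cells of a kind and less RNA per cell cannot be told apart.

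With U0126 the members that passed the test without the block against FGF alone at the same time were all lower. They were Itgb3 and Vcam1 at 4 h, Itga6, Itgb3 and Vcam1 at 7 h, and Itga6 and Vcam1 at 12 h. That is 2, 3 and 2 of 10 lower, where 2.75%, 3.05% and 5.79% of all genes were lower, and 0 of 10 higher at each time, where 3.19%, 3.03% and 6.26% were higher. With the block 4, 4 and 2 of 10 were lower at 4, 7 and 12 h, and 1, Itgb5, was higher at 12 h. The block called 12.9%, 12.6% and 20.6% of all genes in either direction at these times. At 1 h, with 1 array on each side and the spread taken from the other groups, 0 of 10 passed, against 0.0333% of all genes higher and 0.147% lower, and no member had an unadjusted p under 0.05. Against quiescent cells, 2 members were lower at 4 h (Itga6 and Itgb3), 2 at 7 h (Itgb5 and Vcam1) and 1 at 12 h (Vcam1), where 4.03%, 5.29% and 2.95% of all genes were lower. No member was higher there, against 3.29%, 3.72% and 2.41% of all genes. The arrays with U0126 stand in both the comparison with FGF alone and this comparison with quiescent cells, so these are not independent of each other. The arrays of FGF alone are likewise shared between the comparison with U0126 and that of FGF alone with quiescent cells. Log2 differences are of signal plus 13.6 and therefore understate the change of genes with low signal.

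**Figure D1:**
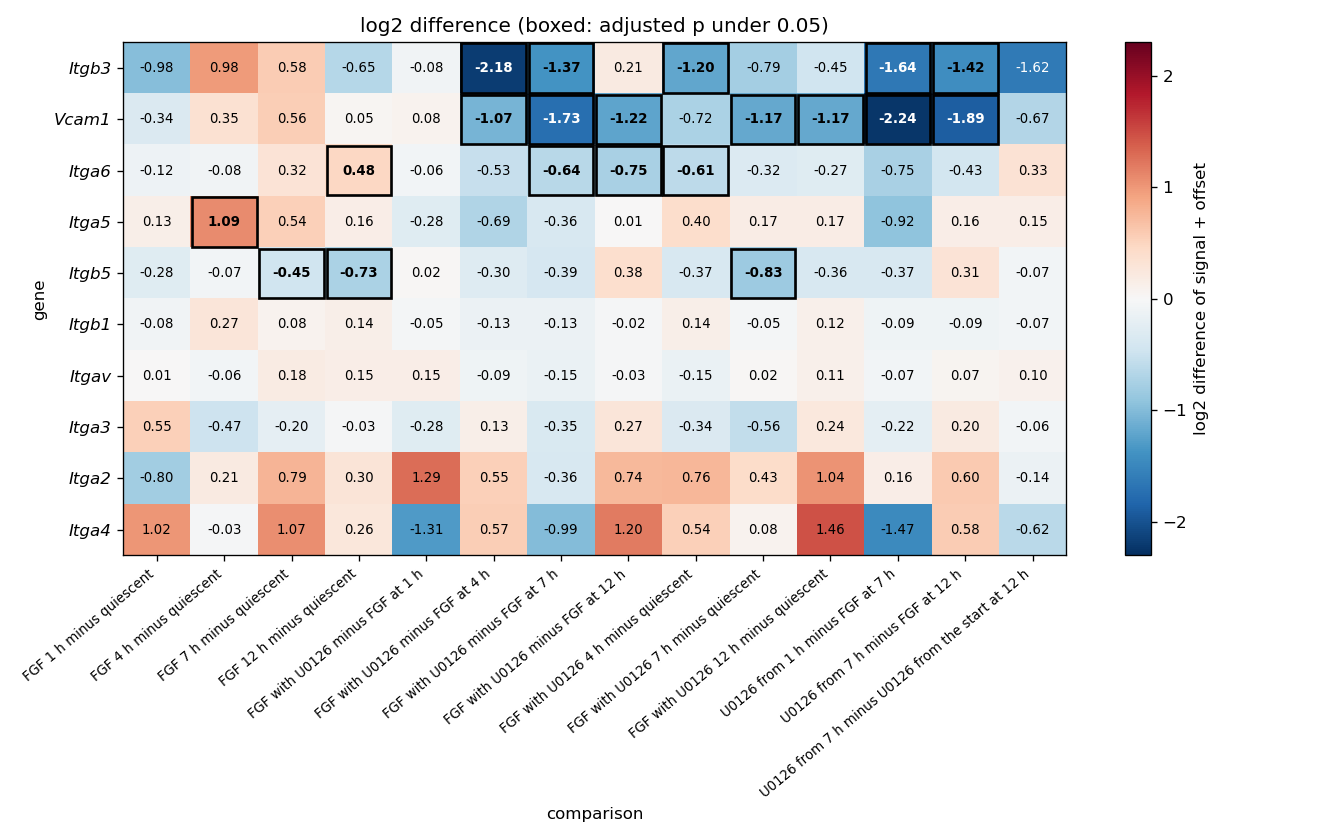
Log2 difference of signal plus 13.6 for each of the 10 genes (vertical) in each of 14 comparisons (horizontal), with boxes around those at an adjusted p under 0.05. The boxed values of Itgb3 and Vcam1 are all negative and lie in comparisons with U0126, and the values of Itgb1 and Itgav stay between -0.15 and 0.27.

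Itgb3 encodes the beta 3 subunit, which pairs with alpha v in fibroblasts. Its signal (probe set 1455257_at) at 4 h was 118 and 168.2 with U0126, against 603.8 and 781.5 with FGF alone. At 7 h it was 171.5 and 212.8 with U0126, against 450.5 and 590.5 with FGF alone. The arms of this probe set did not overlap at either time. U0126 lowered its signal 4.53-fold at 4 h (log2 difference -2.18 ± 0.31 SE, adjusted p = 0.00058) and 2.59-fold at 7 h (-1.37 ± 0.31, adjusted p = 0.016). At 12 h the arms overlapped, with 204.5 and 296.5 under U0126 and 171.6 and 260.8 under FGF alone (0.21 ± 0.31, adjusted p = 0.79). At 1 h the signal was 156.2 with U0126 and 166.4 with FGF alone. Within experiments 1 and 2 the differences were -2.23 and -2.13 at 4 h, -1.33 and -1.42 at 7 h, and 0.24 and 0.18 at 12 h. The call at 4 h stayed without any single array, but that at 7 h was lost without the experiment 2 array of FGF alone (adjusted p = 0.13), the experiment 1 array with U0126 (0.13) or its experiment 2 array (0.055).

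Over the course of FGF alone the signal of Itgb3 (1455257_at) was highest at 4 h. Quiescent arrays had 209, 308.4 and 455.6, and FGF alone had 166.4 at 1 h and, in experiments 1 and 2, 603.8 and 781.5 at 4 h, 450.5 and 590.5 at 7 h and 171.6 and 260.8 at 12 h. All values at 4 h lay above the quiescent ones, those at 7 h overlapped them by 1 array, and the 12 h values overlapped their lower end. Against quiescent cells the log2 difference was 0.98 ± 0.31 at 4 h (adjusted p = 0.068), 0.58 at 7 h (0.29) and -0.65 at 12 h (0.17), so none passed. With the experiment as a replicate block all 3 passed, with adjusted p of 0.0018, 0.044 and 0.017. Experiment 2 lay above experiment 1 in all 7 groups that had both. The 3 FGF times differed from each other by limma's F test, added after the data were seen (adjusted p = 0.013, where 4.62% of all genes were called). That call was lost without the experiment 2 array at 4 h (0.072) or the experiment 1 array at 12 h (0.21). With U0126 present the 3 times gave adjusted p = 0.54, where 0.553% of all genes were called. The effect of U0126 itself differed between 4, 7 and 12 h (F test, adjusted p = 0.036, with 0.987% of all genes called and 0.00012 with the block). That call did not hold without the experiment 1 or 2 array of FGF alone at 4 h (0.06 and 0.13) or 12 h (0.23 and 0.058), without the U0126 arrays of experiment 1 at 4 h (0.11) or 7 h (0.058), or without either U0126 array at 12 h (0.06 and 0.22). Against quiescent cells Itgb3 with U0126 fell 2.29-fold at 4 h (-1.20 ± 0.31, adjusted p = 0.032), a call lost without quiescent replicate 1b (0.085) or 2 (0.35) or without the U0126 array of experiment 1 (0.21) or 2 (0.055). At 7 h that difference was -0.79 (adjusted p = 0.14, and 0.0084 with the block), and at 12 h -0.45 (0.52). The other Itgb3 probe set, 1421511_at, with 33.6 to 250.3 over all arrays, passed in no comparison. With FGF alone it averaged 227.5, 132.9 and 178.2 at 4, 7 and 12 h, against 153.6 in quiescent cells. Its differences from quiescent cells were 0.58, -0.14 and 0.19 (adjusted p = 0.56, 0.92 and 0.84 over all probe sets). Those at 7 and 12 h were of opposite sign to those of 1455257_at. At 4 h 1421511_at had 60.1 and 109.8 with U0126, against 250.3 and 204.7 with FGF alone (-1.33 ± 0.45, adjusted p = 0.12). At 7 h its arms overlapped, with 71.6 and 125.8 against 118.9 and 146.9 (-0.42 ± 0.45, 0.75). At 12 h its difference was -0.69 (0.43), of opposite sign to that of 1455257_at.

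Vcam1 showed lower signal with U0126 at 3 times. At 4 h its signal (1448162_at) was 317.8 and 380.6 with U0126, against 615.3 and 899.9 with FGF alone. At 7 h it was 255 and 248.1 with U0126, against 847.3 and 882.2 with FGF alone, and at 12 h 209.2 and 301.2, against 587.2 and 621.2. The arms did not overlap at any of these times, and all 3 quiescent arrays (530.5, 565 and 616.7) lay above the highest U0126 array. At 1 h the arms had 485.5 with U0126 and 457.6 with FGF alone. U0126 lowered Vcam1 2.1-fold at 4 h (-1.07 ± 0.22, adjusted p = 0.008), 3.31-fold at 7 h (-1.73 ± 0.22, 0.00018) and 2.33-fold at 12 h (-1.22 ± 0.22, 0.0015). Within experiments 1 and 2 the differences were -0.92 and -1.21, -1.68 and -1.78, and -1.43 and -1.01 at 4, 7 and 12 h. The calls at 7 and 12 h stayed without any single array, and that at 4 h was lost without the experiment 2 array of FGF alone (0.13) or the experiment 1 array with U0126 (0.084). The size of the U0126 effect was not shown to differ between the 3 times (F test, adjusted p = 0.75).

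Against quiescent cells Vcam1 with U0126 fell 2.24-fold at 7 h (-1.17 ± 0.22, adjusted p = 0.0036) and 2.25-fold at 12 h (-1.17 ± 0.22, 0.0048). The 12 h call was lost without quiescent replicate 2 (0.067) or the experiment 1 array with U0126 (0.079). At 4 h the difference was -0.72 (0.062, and 0.0082 with the block). With FGF alone the differences from quiescent cells were 0.35 at 4 h, 0.56 at 7 h and 0.05 at 12 h (adjusted p = 0.4, 0.12 and 0.91), and at 7 h the block gave 0.026. The probe set 1415989_at had 185.7 and 219 with U0126 at 7 h, against 531.9 and 498.7 with FGF alone, and was also called lower at 7 h (-1.30 ± 0.21, 0.0017 over all probe sets) and 12 h (-0.76 ± 0.21, 0.033), while at 4 h it had -0.63 (0.12). The probe set 1451314_a_at passed at none of these times, with differences from -0.93 to -0.48. Set against quiescent cells, 1415989_at with U0126 was called lower at 7 h (-1.04 ± 0.21, 0.0075) but not at 12 h (-0.77 ± 0.21, 0.054). The probe set 1451314_a_at was called at neither time there (-0.45 and -0.74, adjusted p = 0.53 and 0.28). Vcam1 is also an endothelial gene. Of the 6 endothelial markers Kdr had a median signal of 58.5 (above 45.2 on 13 arrays) and Cdh5 one of 44.6 (on 9), Tek, Vwf, Pecam1 and Tie1 had 27.8, 7.5, 6.4 and 3.1, and their part was not tested.

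**Figure D2:**
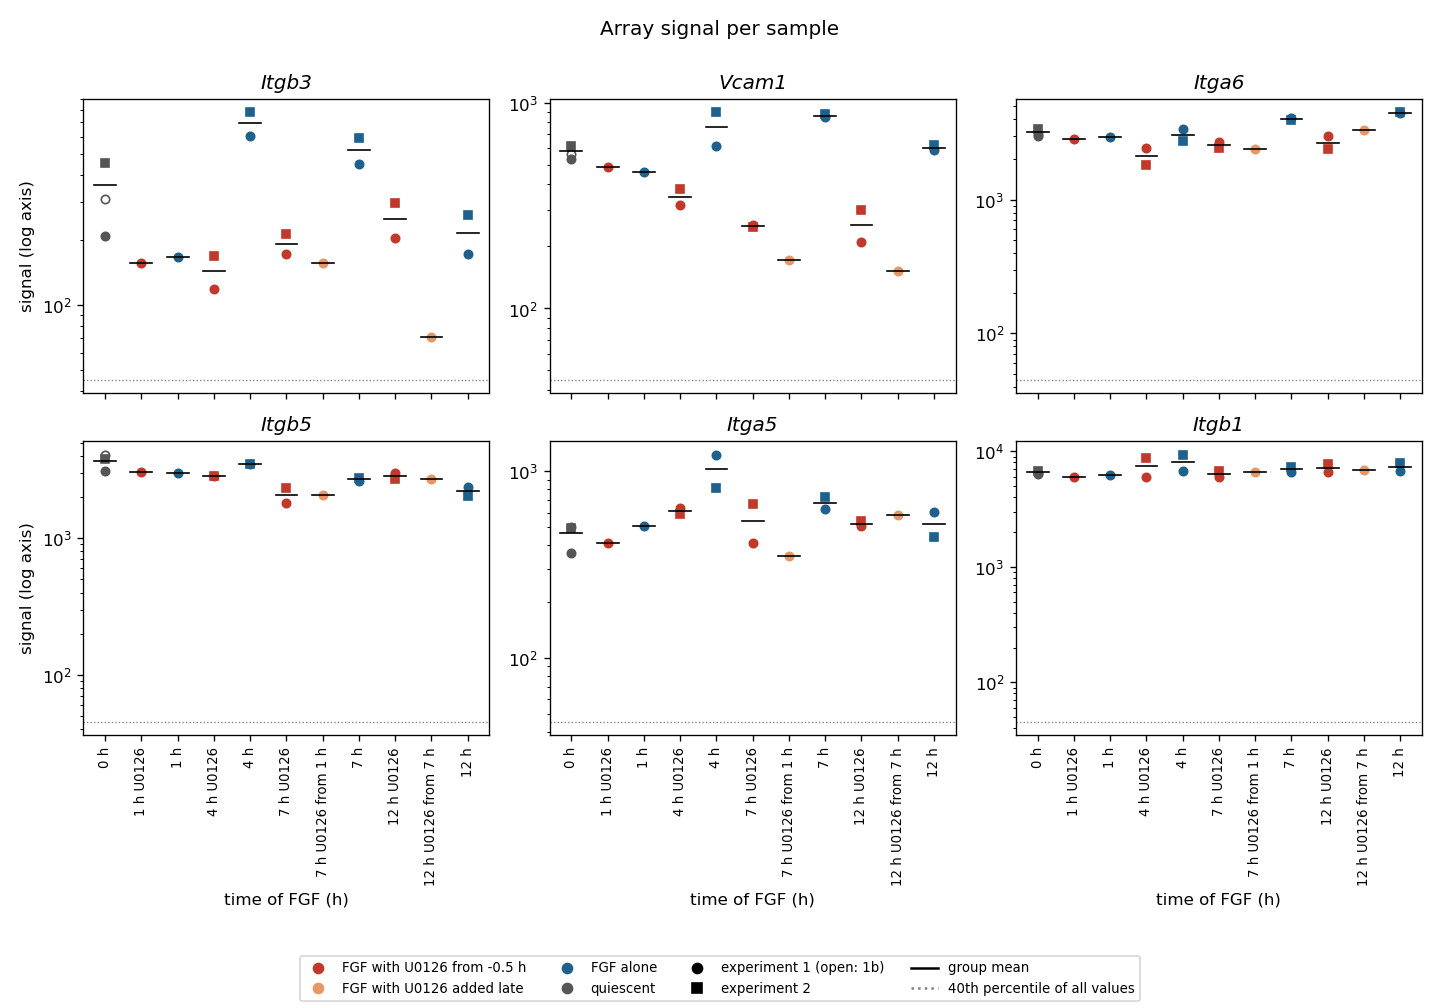
Array signal (vertical, log axis) of 6 genes in each group, ordered by time of FGF with U0126 left of FGF alone; points are arrays (circle experiment 1, square experiment 2, open circle replicate 1b), black lines are group means and the dotted line is the 40th percentile of all values (45.2). In the brightest probe set of each gene, shown here, Itgb3 and Vcam1 separate by U0126 at 4 and 7 h, and Itgb3 has its lowest value (70.8) where U0126 was added at 7 h.

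Itga6, which binds laminins with beta 1 or beta 4, was also lower with U0126. Its signal (1422445_at) at 7 h was 2707 and 2448 with U0126, against 4118 and 3943 with FGF alone. At 12 h it was 2972 and 2374 with U0126, against 4439.8 and 4534 with FGF alone. The arms did not overlap, and the fold was 1.56 lower at 7 h (-0.64 ± 0.16, adjusted p = 0.028) and 1.69 lower at 12 h (-0.75 ± 0.16, 0.0061). At 4 h it had 2429 and 1816 with U0126, against 3364 and 2733 with FGF alone (-0.53 ± 0.16, adjusted p = 0.073, and 0.0088 with the block). Within experiments 1 and 2 the differences were -0.47 and -0.59, -0.60 and -0.68, and -0.58 and -0.93 at 4, 7 and 12 h. The 7 h call was lost without any 1 of its 4 arrays (0.078 to 0.18), and the 12 h call without the experiment 2 array with U0126 (0.09). Leaving out the experiment 1 array with U0126 made 4 h pass (0.041).

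Itga6 was also higher at 12 h of FGF alone than before FGF. The quiescent arrays had 3007, 3123 and 3378, all below the 12 h arrays of FGF alone and above all 6 arrays that had U0126 from the start at 4 h or later. FGF raised Itga6 1.39-fold at 12 h (0.48 ± 0.16, adjusted p = 0.049). That call was lost without quiescent replicate 1a (0.054) or 2 (0.11) and without the experiment 1 or 2 array at 12 h (0.15 and 0.18). At 4 and 7 h the differences were -0.08 (0.84) and 0.32 (0.24), and the FGF times differed with adjusted p = 0.13, which the block took to 0.014. With U0126 Itga6 stood below quiescent cells at 4 h (-0.61 ± 0.16, adjusted p = 0.032), a call lost without quiescent replicate 2 (0.23) or the experiment 2 array with U0126 (0.28). At 7 and 12 h these differences were -0.32 (0.27) and -0.27 (0.42). The probe set 1422444_at moved the same way and was called more often. It had 1231 and 1369 with U0126 at 4 h, against 2054 and 2120.3 with FGF alone (-0.68 ± 0.14, 0.011 over all probe sets), and was lower at 7 h (-0.78, 0.0038) and 12 h (-0.81, 0.0015) as well. With FGF alone it was higher than in quiescent cells at 7 h (0.53, 0.025) and 12 h (0.51, 0.02).

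**Figure D3:**
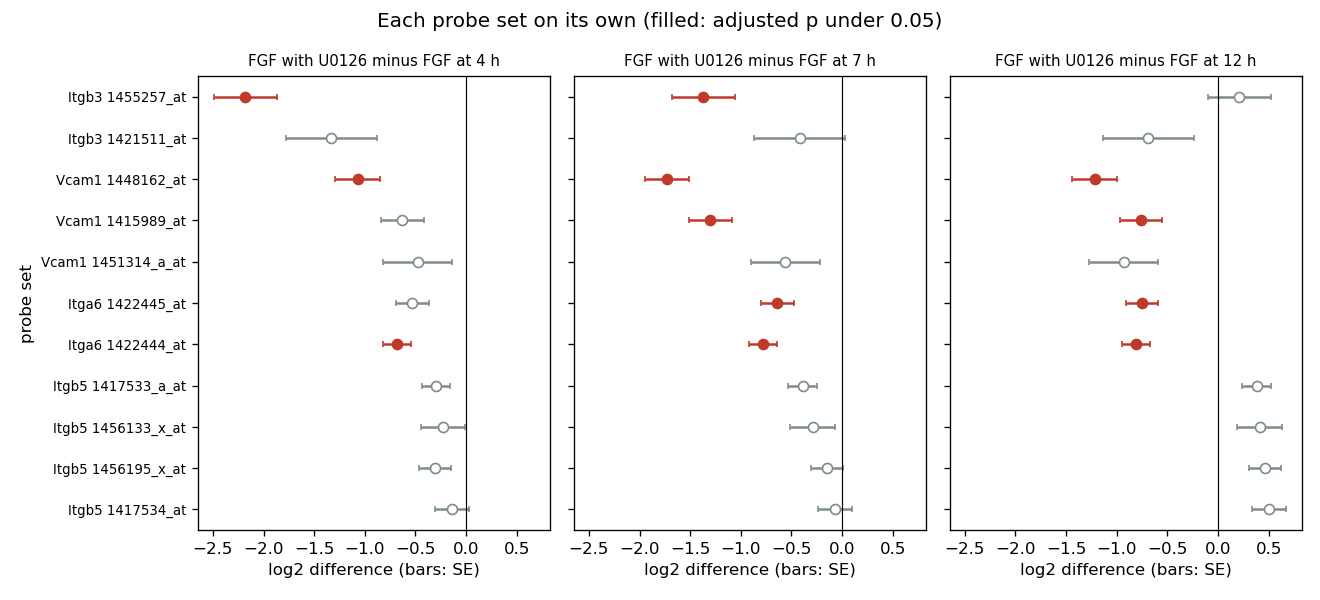
Log2 difference of FGF with U0126 minus FGF alone (horizontal, bars are SE) at 4, 7 and 12 h for each probe set of 4 genes (vertical), fitted with all probe sets. Filled points passed at 0.05, and the 2 Itgb3 probe sets lie on opposite sides of 0 at 12 h.

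Itga5, which pairs with beta 1 alone, was highest at 4 h of FGF in its brightest probe set. Its signal (1423267_s_at) was 1227 and 815.4 there, against 366.2, 503.5 and 498 in quiescent cells, with no overlap, and the 2.13-fold difference passed (1.09 ± 0.24, adjusted p = 0.01). The call was lost without the experiment 1 array at 4 h (0.8 on the log2 scale, adjusted p = 0.12), and the differences within experiments 1 and 2 were 1.49 and 0.70. The other 3 probe sets of Itga5 (1423268_at, 1458996_at and 1457561_at) had 0.71, 0.67 and 0.46 at 4 h, none called (adjusted p = 0.23, 0.31 and 0.62). Of these, 1458996_at and 1457561_at had their highest group signal at 1 h of FGF, not at 4 h. They had 250.4 and 100 on the 1 array there, against means of 168.6 and 80.4 at 4 h. At 7 and 12 h the differences of 1423267_s_at were 0.54 (0.19) and 0.16 (0.72). By the F test its FGF times differed with adjusted p = 0.091, and 0.022 with the block. With U0126 its 4 h signal was 635.3 and 591.6, against 1227 and 815.4 with FGF alone, again without overlap (-0.69 ± 0.24, adjusted p = 0.12, and 0.044 with the block). There 1423268_at, 1458996_at and 1457561_at had -0.25, -0.59 and -0.26, none called (adjusted p = 0.79, 0.44 and 0.84 over all probe sets). The 4 h arms of 1423268_at and 1457561_at overlapped. At 7 h the arms of 1423267_s_at overlapped, with 413.4 and 663.1 against 626 and 730.6, and at 12 h with 506.4 and 538 against 601 and 445.9.

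Itgb1, the beta subunit shared by alpha 2, 3, 4, 5 and 6, and Itgav, the alpha v subunit, passed in none of the 14 comparisons, with the block or without it. Itgb1 (1452545_a_at) lay between 5998 and 9379 on all arrays, and its group means spanned 0.40 on the log2 scale. At 4 h it had 5998 and 8819 with U0126, against 6759.5 and 9379 with FGF alone, so that the experiments differed more than the arms. Experiment 2 was above experiment 1 in all 7 groups with both. Itgav (1452784_at) lay between 7288 and 9589, and its group means spanned 0.37. A second, dimmer Itgav probe set, 1432296_a_at, had 172.9 and 285.3 at 12 h of FGF, against 35.9, 159 and 88.9 in quiescent cells (1.28 ± 0.36, adjusted p = 0.024 over all probe sets). The probe set 1452784_at had 8693 and 9398 there, against 9307, 7391 and 8025 (0.15, adjusted p = 0.45).

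Itgb5, which pairs with alpha v and binds vitronectin, fell with time of FGF. Quiescent arrays had 3089.5, 4087 and 3776 (1417533_a_at). With FGF alone it had 3015 at 1 h, 3496 and 3477 at 4 h, 2614 and 2754 at 7 h and 2381 and 2027 at 12 h. The 7 and 12 h arrays lay below all quiescent ones, and Itgb5 fell 1.36-fold at 7 h (-0.45 ± 0.14, adjusted p = 0.047) and 1.66-fold at 12 h (-0.73 ± 0.14, 0.0015). The differences within experiments 1 and 2 were -0.44 and -0.45 at 7 h and -0.57 and -0.89 at 12 h. The 12 h call stayed without any single array, and the 7 h call was lost without quiescent replicate 1b (0.18) or 2 (0.24) or either array at 7 h (0.2 and 0.1). All 4 Itgb5 probe sets (with 1456133_x_at, 1456195_x_at and 1417534_at) were called lower at 12 h, with differences from -1.04 to -0.73. The 3 FGF times differed (F test added after the data were seen, adjusted p = 0.028), a call lost without either array at 4 h (0.14 and 0.16) or at 12 h (0.062 and 0.18).

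With U0126 Itgb5 had 1816 and 2317 at 7 h with U0126, against 2614 and 2754 with FGF alone (-0.39 ± 0.14, adjusted p = 0.14), and 2991 and 2726 at 12 h, against 2381 and 2027 (0.38 ± 0.14, 0.1). Neither pair of 1417533_a_at overlapped, and its U0126 arm was the lower one at 7 h and the higher one at 12 h. Both passed with the block (0.046 and 0.036), as did the difference of the U0126 effect between the 3 times (0.14 without the block, 0.023 with it). The probe sets 1456133_x_at, 1456195_x_at and 1417534_at had smaller differences at 7 h. These were -0.29, -0.15 and -0.07 (adjusted p = 0.6, 0.77 and 0.92 over all probe sets). The arms of 1456133_x_at and 1417534_at overlapped at 7 h. At 12 h these probe sets had 0.41, 0.46 and 0.5, without overlap and none called (0.3, 0.099 and 0.09). Compared with quiescent cells, Itgb5 with U0126 fell 1.78-fold at 7 h (-0.83 ± 0.14, adjusted p = 0.0015), and all 4 probe sets were called there. At 4 and 12 h the differences were -0.37 (0.14) and -0.36 (0.17), and the block gave 0.05, just inside the limit, and 0.059. Between its 3 times with U0126 the F test gave adjusted p = 0.21, and 0.034 with the block.

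Itga3, Itga2 and Itga4 passed in no comparison, with the block or without it. Itga3 (1455158_at) was measured on all arrays at 153.8 to 374.1. Its highest value was at 1 h of FGF, 374.1 on 1 array, against 255.3, 239.8 and 256.7 in quiescent cells (0.55, adjusted p = 0.59), and at 7 h it had 153.8 and 181.3 with U0126, against 185.9 and 253.3 with FGF alone (-0.35, 0.53). Itga2 (1450501_at), the collagen receptor subunit, was above 45.2 on 10 of 19 arrays and ranged from 5.3 to 77.8. Its 2 quiescent replicates of experiment 1 had 66.2 and 5.3, a difference of 2.08 on the log2 scale of signal plus 13.6. Itga4 (1436037_at), whose product binds VCAM-1, was above 45.2 on 5 of 19 arrays and ranged from 3.3 to 96.7. A difference in Itga2 or Itga4 between conditions was not detectable at this signal. The other kept probe sets of Itga3, Itga4, Itgav and Itgb1, apart from 1432296_a_at of Itgav, passed in no comparison either. They were 1460305_at and 1421997_s_at of Itga3 (median signals 53.5 and 28.2), 1421194_at of Itga4 (4.9), 1421198_at and 1432679_at of Itgav (987.1 and 14.8) and 1426918_at, 1427771_x_at, 1426920_x_at and 1426919_at of Itgb1 (5724, 430.3, 38.3 and 27.2). The 5 probe sets removed by the filter on low signal were 1427615_at, 1456498_at and 1450155_at of Itga4, 1432678_at of Itgav and 1438119_at of Itgb1.

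**Figure D4:**
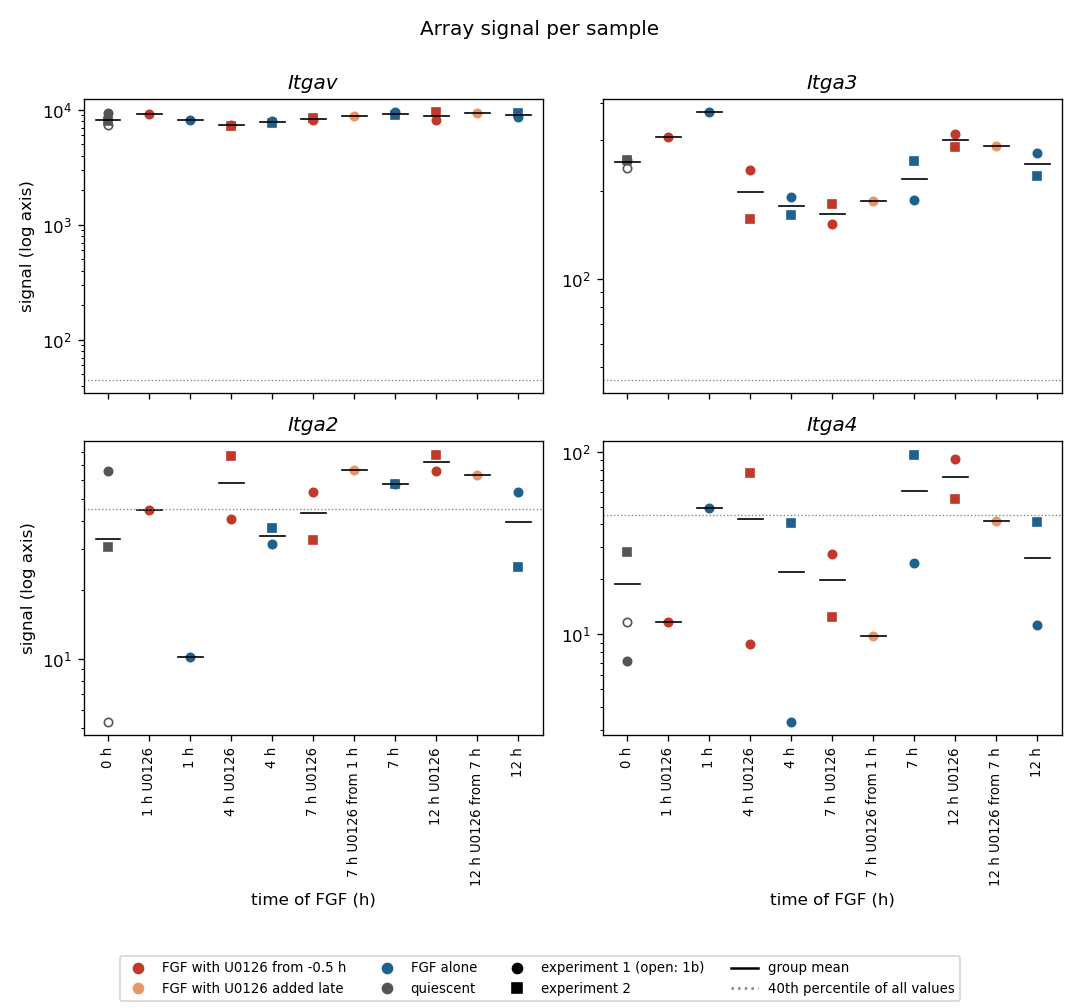
Array signal (vertical, log axis) of Itgav, Itga3, Itga2 and Itga4 in each group, ordered by time of FGF with U0126 left of FGF alone, with the same symbols for experiments and the dotted line at 45.2. Itgav stays within 7288 to 9589, while most points of Itga4 lie under the dotted line.

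The late additions ask whether U0126 changed these genes after FGF had already acted for 1 or 7 h. Each late arm was 1 array of experiment 1, so its error was taken from the spread of the other groups. Of the 10 members 2 were lower in each (Itgb3 and Vcam1) and 0 were higher. Among all genes 1.91% were lower and 1.67% higher for U0126 from 1 h, and 2.58% lower and 2.46% higher for U0126 from 7 h. At 7 h Vcam1 had 172 with U0126 from 1 h, against 847.3 and 882.2 with FGF alone (4.73-fold lower, -2.24 ± 0.27, adjusted p = 0.00019). At 12 h it had 152.7 with U0126 from 7 h, against 587.2 and 621.2 (3.71-fold lower, -1.89 ± 0.27, 0.00075). Both calls stayed without either array of FGF alone. Itgb3 had 156.8 with U0126 from 1 h, against 450.5 and 590.5 (3.11-fold lower, -1.64 ± 0.38, adjusted p = 0.028, and 0.16 without the experiment 2 array). The other Itgb3 probe set, 1421511_at, had 117.5 against 118.9 and 146.9 (-0.15 ± 0.55, adjusted p = 0.95 over all probe sets). With U0126 from 7 h the Itgb3 probe set 1455257_at had 70.8, the lowest of its 19 arrays, against 171.6 and 260.8 (2.67-fold lower, -1.42 ± 0.38, adjusted p = 0.048). That call was lost without the experiment 1 (0.052) or 2 array (0.24) of FGF alone, and 1421511_at had 96.3 against 122.5 and 234 there (-0.74 ± 0.55, 0.57). Itga6 had 2389 with U0126 from 1 h, against 4118 and 3943 (-0.75 ± 0.20, adjusted p = 0.051, and 0.0024 with the block), and 3332 with U0126 from 7 h, against 4439.8 and 4534 (-0.43, 0.27, and 0.048 with the block). Its probe set 1422444_at was called lower in both late arms, with 1517 from 1 h, against 2782 and 3334 (-1 ± 0.17, 0.0039 over all probe sets), and 1707 from 7 h, against 2852 and 3158 (-0.81 ± 0.17, 0.015).

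At 12 h the inhibitor could be compared by its time of addition. U0126 from 7 h minus U0126 from -0.5 h gave 0 of 10 members called, where 0.547% of all genes were higher and 0.113% lower, and 2 members, Itgb3 and Vcam1, had an unadjusted p under 0.05. Itgb3 had 70.8 with the late addition, against 204.5 and 296.5 with the early one (-1.62 ± 0.38, adjusted p = 0.085, and 0.0045 with the block). Its probe set 1421511_at had 96.3 with the late addition, against 165.8 and 58.8 with the early one (-0.05 ± 0.55, 0.99 over all probe sets), so the 2 probe sets disagree. Vcam1 had 152.7 with the late addition, against 209.2 and 301.2 with the early one (-0.67, 0.43). Itga6 had 3332 with the late addition, against 2972 and 2374 with the early one (0.33, 0.7).

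Other genes of cell adhesion were read from lists of textbook members. Of 17 other integrin subunits 13 were tested. Itgb2, the beta subunit of leukocyte integrins, was lower with U0126 at 7 h (-1.22 ± 0.32, adjusted p = 0.034) and 12 h (-1.31 ± 0.32, 0.013), with a signal of 47.2 to 212.3 over all arrays. The summed leukocyte markers given above, to which Itgb2 belongs, had an overlapping but lower range with U0126. Csf1r was above 45.2 on 19 arrays, Adgre1 and Cd68 on 17 each, Tyrobp on 2 and Itgam and Ptprc on 0, and their part was not tested. Itga2b, the partner of beta 3 in platelets, was lower at 12 h of FGF (-0.87 ± 0.28, 0.04), and no other subunit in the list was called in any comparison. That is 1 of 13 lower at 12 h of FGF, where 11.8% of all genes were lower. For U0126 against FGF alone it is 1 of 13 lower at 7 h and at 12 h, where 3.05% and 5.79% were lower. Both counts at 12 h are near or below the share of all genes. The list's median log2 difference for U0126 against FGF alone was 0.07, -0.31 and 0.24 at 4, 7 and 12 h, beside 0.05, -0.04 and 0.05 for all genes.

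Of 21 other adhesion receptors tested, FGF alone raised 4, 5 and 5 and lowered 0, 2 and 4 at 4, 7 and 12 h, where 3.91%, 5.47% and 8.54% of all genes were higher and 4.97%, 7.2% and 11.8% lower. Cd44, the hyaluronan receptor, rose by 1.70 ± 0.12 on the log2 scale at 4 h (adjusted p = 1.1e-06), and Sdc4, a heparan sulphate proteoglycan of focal adhesions, by 1.58 ± 0.24 (0.00085). At 12 h Alcam rose (2.02 ± 0.27, 0.00012), while Cspg4 (-1.28 ± 0.25, 0.0019) and Thy1 (-0.98 ± 0.15, 0.00026) fell. U0126 against FGF alone gave 1, 4 and 3 higher and 2, 2 and 3 lower at 4, 7 and 12 h, where 3.19%, 3.03% and 6.26% of all genes were higher and 2.75%, 3.05% and 5.79% lower, so that 1 of 21 higher at 4 h is near the share of all genes. Cd44 was lower with U0126 at 4 h (-0.75 ± 0.12, 0.00099), as was Sdc1 (-0.86 ± 0.16, 0.0043). Pvr, a nectin-like molecule, was higher at 4, 7 and 12 h (1.36, 1.29 and 1.05), and Cspg4, the NG2 proteoglycan, at 7 and 12 h (1.64 and 1.76). Alcam was lower at 12 h (-1.40 ± 0.27, 0.0032). The receptors' median was 0.15, -0.01 and 0.02 at the 3 times. Of 5 tetraspanins, membrane partners of integrins, none was called with U0126 against FGF alone at these times, and at 12 h of FGF Cd82 and Cd81 fell (-0.92 and -0.42) and Cd9 rose (0.48).

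Of 33 proteins of focal adhesions tested, U0126 against FGF alone lowered 4, 5 and 3 and raised 0, 0 and 3 at 4, 7 and 12 h. Of all genes 2.75%, 3.05% and 5.79% were lower and 3.19%, 3.03% and 6.26% higher, and the counts at 12 h are near those shares. The list's median was -0.23, -0.28 and -0.07, beside 0.05, -0.04 and 0.05 for all genes. Parvb (-1.49 ± 0.27, adjusted p = 0.0037) and Kank1 (-1.15 ± 0.27, 0.018) were lower at 4 h. Pxn, which encodes the scaffold paxillin, was lower at 4 h (-0.90 ± 0.17, adjusted p = 0.0039) and 7 h (-0.94 ± 0.17, 0.0027). Tns3, a tensin that binds beta subunit tails, was lower at 4 h (-1.29 ± 0.11, 7.7e-06) and 7 h (-0.65 ± 0.11, 0.0021), and Actn1, an actin crosslinker, at 7 h (-1.15 ± 0.22, 0.0055) and 12 h (-0.79 ± 0.22, 0.031). At 12 h Lims2 and Tgfb1i1 were higher with U0126 (2.39 and 1.58), and both were lower at 12 h of FGF alone against quiescent cells (-3.22 and -1.70). Those comparisons share the arrays of FGF alone.

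Of 26 matrix ligands tested, FGF alone raised 2, 1 and 1 and lowered 1, 4 and 10 at 4, 7 and 12 h. Of all genes 3.91%, 5.47% and 8.54% were higher and 4.97%, 7.2% and 11.8% lower, so the raised counts at 7 and 12 h and the lowered one at 4 h are at or below those shares. Thbs1 (thrombospondin 1) rose by 1.84 ± 0.42 on the log2 scale at 4 h (adjusted p = 0.013). Tnc, encoding tenascin C, rose at 4, 7 and 12 h (1.35, 1.71 and 1.22), and Nid2, Lamb2 and Thbs2 fell at 12 h (-1.93, -1.79 and -1.40). U0126 against FGF alone lowered 2 at each of 4, 7 and 12 h and raised 0, 0 and 4, against 2.75%, 3.05% and 5.79% of all genes lower and 3.19%, 3.03% and 6.26% higher, and the lowered count at 12 h is near its share. Lamb1, a laminin chain, was lower at all 3 times (-0.81, -0.95 and -0.80), and Ccn2, a matrix protein bound by alpha v integrins, at 7 h (-2.47 ± 0.27, 5.4e-05) and 12 h (-1.66 ± 0.27, 0.00081). Lamb2 and Thbs2 were higher with U0126 at 12 h (1.06 and 0.82), a comparison that shares the FGF arrays with their fall at 12 h of FGF. The matrix list's median for U0126 was 0.04, 0.00 and 0.17 at the 3 times.

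Itgb3 and Vcam1 had the widest ranges of group means of the 10 members, 3.05 and 2.4 on the log2 scale. Over the 11 group means they correlated with each other with r = 0.77, and Itga5 with Itgb1 with r = 0.75. The genes most like them were taken from 8555 genes whose group means spanned at least 1. For Itgb3 these were Trim8 (Pearson r = 0.928), Il10rb (0.924) and Ccdc85b (0.914), and 4 of the 8555 exceeded 0.9. For Vcam1 they were Cnot6l (0.964), Map3k5 (0.951, at a mean signal of 71) and Ccn2 (0.95), and 26 exceeded 0.9. The 11 points share arrays between genes, and 4 of them are single arrays, so these values are descriptions.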

How the data were processed

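RNA of 19 NIH3T3 samples was measured on Affymetrix mouse expression arrays, 1 array per sample. The values are MAS5 signal as deposited by the authors, on a linear scale that the authors set to a common trimmed mean of 500 (per the labels); the MAS5 version, per the submitters' processing notes, and presence calls are not given in the sources used here. Depth has no meaning for arrays, and their number limits the precision. Of 45101 probe sets, 34945 carried 1 gene symbol, 932 several, 9160 none, and 64 were controls, and those without a single gene were left out. A value of 13.6, the 20th percentile of all values, was added before log2. A filter kept 27915 probe sets whose signal exceeded their own array's 40th percentile on 2 or more arrays. The brightest such probe set, by mean signal, stood for each of 14996 genes. The quiescent replicates of experiment 1 (1a and 1b) were first averaged on the log2 scale, which gave 18 columns in 11 groups. They differed by a median of 0.28 (absolute log2) over genes.

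One limma 3.58.1 model in R 4.3.3 covered all groups (lmFit, eBayes with a variance trend, 7 residual and 7.42 prior degrees of freedom). Contrasts and F tests were two-sided and adjusted by Benjamini-Hochberg over all genes tested at 0.05. The experiment numbers come from the labels. Deviations of same-numbered samples correlated in all 21 pairs of 7 groups, with r from 0.126 to 0.303 (median 0.215), so the numbers were taken to pair the samples. The calls, counts and shares are nonetheless those of the model without this pairing, unless the block is named. Results with the experiment as a replicate block (6 residual degrees of freedom) are given where they change a call. The steps were tested on simulated data with known changes. Alternatives were 2 other scalings, 2 other offsets, 2 other filters, no variance trend, 3 separate quiescent arrays, 2 other choices of probe set, the block, and leaving out each array.

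The members, the lists, the tests and the naming rule were chosen with earlier results of these data known. All members and each of their probe sets are named. The genes named from each list were among the 4 called with the largest absolute log2 difference per comparison, and not all of those 4 are given. For the 2 members with the widest range of group means, the 3 genes of highest Pearson r over the 11 group means were named. The 5 lists were other integrin subunits, other adhesion receptors, tetraspanins, focal adhesion proteins and matrix ligands. Start-site windows are from RefSeq on GRCm38.p6, and motifs were searched on both strands. Figures were drawn with matplotlib 3.10.9 in Python 3.11.15.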

Additional observations from a re-analysis of the deposited data

Results flagged for a closer look

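The effect of U0126 on Itgb3 (1455257_at) differed between times by a test of the difference itself (limma's F test over 4, 7 and 12 h, adjusted p = 0.036). That call was lost without any 1 of several arrays, with no filter, with no variance trend or with the other choices of probe set. At 12 h the U0126 difference was 0.21 for 1455257_at but -0.69 for 1421511_at. The Itgb3 signal also differed between the FGF times (adjusted p = 0.013), as did that of Itgb5 (adjusted p = 0.028), both by F tests added after the data were seen. Each of these calls was also lost when certain single arrays were left out. With FGF alone Itgb3 (1455257_at) averaged 692.6 at 4 h, 520.5 at 7 h and 216.2 at 12 h, while Itgb5 averaged 3486, 2684 and 2204 (n = 2 each). The Itgb3 probe set 1421511_at averaged 227.5, 132.9 and 178.2 at these times, so it was not lowest at 12 h.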

How the results depend on the processing

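Of the results on single members, 42 passed the limit as reported or under an alternative other than leaving out an array. Over their alternatives 551 values kept their side of the limit, 76 lost the call, 32 gained one and 0 turned direction. The other 128 passed neither there nor without any array, and 47 of them changed sign in some alternative. Counts of called members out of 10 moved as follows. For FGF 4 h against quiescent cells (1), quantile normalization, 75th percentile scaling, 3 separate quiescent arrays and the replicate block each gave 2, the probe set of highest variance gave 0, and leaving out an array gave 0 to 2. For FGF 7 h (1), 75th percentile scaling, no filter, no variance trend, 3 separate quiescent arrays and all probe sets gave 0, the block gave 3, and leaving out an array 0 to 1. For FGF 12 h (2), an offset of 1, no filter, no variance trend and all probe sets gave 1, and leaving out an array 1 to 2. For U0126 against FGF, the block gave 4 at 4 h (2 without it), no variance trend gave 1 at 7 h (3), and leaving out an array gave 1 to 2 at each of the 3 times. For U0126 against quiescent cells at 4 h (2), 75th percentile scaling and no filter gave 1, no variance trend 0, the block 4, and leaving out an array 0 to 2. At 12 h (1) leaving out an array gave 0 to 1. For U0126 from 1 h (2), no variance trend gave 1 and leaving out an array 1 to 2. For U0126 from 7 h against FGF (2), an offset at the 40th percentile, no filter, no variance trend, 3 separate quiescent arrays and all probe sets gave 1, and leaving out either array of FGF alone 1. Late against early U0126 gave 1 with the block (0 without it). The block also gave 4 for U0126 against FGF at 7 h (3 without it) and 3 for U0126 against quiescent cells at 7 h (2). For U0126 from 1 h and from 7 h against FGF it gave 3 each (2). It gave 1 higher and 2 lower for FGF 12 h against quiescent cells (2) and for U0126 against FGF at 12 h (2). For the U0126 effect between times (1), no filter, no variance trend, the probe set of highest variance and all probe sets gave 0, the block 2, and leaving out an array 0 to 1. Between FGF times (2), no variance trend gave 0, 3 separate quiescent arrays and the probe set of highest variance 1, the block 4, and leaving out an array 0 to 2. Between times of FGF with U0126 (0) the block gave 1. The block turned no called direction and changed no call of a member other than those given with its result. For most changes the cause was not tested. Leaving out an array leaves a group of 1, assumed to vary like the others. With 1 or 2 arrays a group, small differences, and any in Itga2 and Itga4 near background, cannot be resolved.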
